A study of Homo sapiens with 4 samples.

Results

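The genes of the core binding factor and of the ETO family were described probe set by probe set in U937 cells with and without the fusion protein AML1/ETO. The members were RUNX1, RUNX2 and RUNX3, their partner CBFB, and the ETO family genes RUNX1T1, CBFA2T2 and CBFA2T3. They were chosen by name, and every probe set whose annotation lists one of these symbols was taken, which gave 37 of 54613 probe sets and 7 of 19775 genes. A probe set is a group of short probes on the array that together read 1 stretch of transcript. U937 is a human myeloid cell line. U937-AE is a single clone of them, with a cDNA of AML1/ETO that carries an HA tag and is driven by a zinc-inducible metallothionein promoter in the plasmid pSG-MtNEO. U937-Mt is a bulk population of the same cells with that plasmid empty. Both lines were kept in 100 µM ZnSO4 for 8 hours, so zinc itself was the same in both, and clone choice and the induced protein cannot be told apart. RNA of 3 extractions was pooled for each line, and each pool was hybridized to an Affymetrix HG-U133 Plus 2.0 array in 2 copies.

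RUNX proteins bind DNA through the Runt domain, and CBFB, which does not touch DNA itself, raises their affinity for the site and protects them from degradation. RUNX1, also called AML1, is needed for the first blood stem cells and for myeloid differentiation. The ETO family proteins bind no specific DNA sequence of their own. They are corepressors that bring histone deacetylases to transcription factors. In the t(8;21) translocation of acute myeloid leukemia the Runt domain part of RUNX1 is joined to nearly all of ETO, the product of RUNX1T1, so AML1/ETO keeps the DNA-binding part of the first gene and the corepressor part of the second.

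Core binding factor sites have the letters TGTGGT or TGCGGT, and both strands of the RefSeq promoters of assembly GRCh38.p14 were searched for them. Of 35116 promoters of 300 bases (250 before the start of transcription and 50 after it), 13.1% held TGTGGT, 7.29% held TGCGGT and 2.32% held 2 or more matches of either. The table had 7 promoters of 5 member genes. The distal promoter of RUNX3 is shown because it held 2 matches and RUNX3 was lower in U937-AE. It is the minus strand of chr1:24965011-24965260, and capitals mark TGTGGT read from the other strand, as ACCACA.
RUNX3 distal promoter, 250 bases before the start: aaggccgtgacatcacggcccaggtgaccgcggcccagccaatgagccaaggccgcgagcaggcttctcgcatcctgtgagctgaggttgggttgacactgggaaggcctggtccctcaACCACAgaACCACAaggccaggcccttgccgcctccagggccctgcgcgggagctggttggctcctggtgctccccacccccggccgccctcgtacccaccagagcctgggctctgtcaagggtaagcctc
The first letters of these matches lie 131 and 123 bases before the start. The only listed promoter of CBFA2T3, the ETO family gene that was lower in U937-AE, is shown beside it and held no match. It is the minus strand of chr16:88941351-88941600.
CBFA2T3 promoter, 250 bases before the start: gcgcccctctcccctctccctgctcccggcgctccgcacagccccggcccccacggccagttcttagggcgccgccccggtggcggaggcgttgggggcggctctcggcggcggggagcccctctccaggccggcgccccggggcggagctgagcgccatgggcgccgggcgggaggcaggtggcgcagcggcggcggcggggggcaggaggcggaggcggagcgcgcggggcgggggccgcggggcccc
These 250 bases were 84.4% G or C, against 67.6% in the distal RUNX3 promoter. A match is a description of letters, and neither a match nor its absence says whether a protein binds there. The paper reports AML1/ETO binding at a CBFA2T3 promoter region in U937-AE cells, by chromatin immunoprecipitation with qPCR. Whether that region lies within the 250 bases shown was not analysed.

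The distal promoter of RUNX2 held 5 matches, 4 of TGTGGT and 1 of TGCGGT. Its matches at 17, 25 and 33 bases after the start are shown with those of RUNX3, because the same 18 bases, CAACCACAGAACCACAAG, stand in both genes. The windows are 30 bases each, from the plus strand of chr6:45328338-45328367 for RUNX2 and from the minus strand of chr1:24965120-24965149 for RUNX3, with the matches in capitals.
RUNX2: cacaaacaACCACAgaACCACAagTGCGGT
RUNX3: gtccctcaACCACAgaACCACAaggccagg
The spacing of these matches was then searched for as a pattern, chosen after it was seen in both genes, so its presence in them is no finding. A pair of ACCACA with 2 bases between them (ACCACANNACCACA, on either strand) occurred in 4 of the 35116 promoters, or 0.0114%, namely those of RUNX2, RUNX3, OR52N2 and LOC105369321. The proximal promoters of RUNX2 and RUNX3 and the only listed promoters of RUNX1 and of CBFA2T2 held no match of either motif. Any other promoter of RUNX1, CBFA2T2 or CBFA2T3 was not searched, so RUNX1 is not set against RUNX2 and RUNX3 here.

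Of the 37 member probe sets, 22 were above a signal floor of 136.85 on both arrays of at least 1 pool, and 15 were not. The floor is the median signal of all probe sets over the 4 arrays, and signals under it were set to it ahead of the log2 step. With 2 arrays a line there are 4 ways to pair a U937-AE with a U937-Mt array, and a probe set was called when all 4 ratios were past 1.5-fold in 1 direction. By this rule 3 member probe sets were higher in U937-AE and 4 were lower, which is 31.8% of the 22. Among all 27080 probe sets above the floor 8.01% were called, 2.72% as higher and 5.29% as lower. Before the floor, the signals of 21 of the 22 did not overlap between the lines, but neither did those of 62.6% of the 27080, with 26.4% higher and 36.2% lower in U937-AE, so a lack of overlap by itself says little here. Probe sets of 1 gene share a transcript, and 4 of the 7 calls were of RUNX1. The calls covered RUNX1T1, RUNX1, RUNX3 and CBFA2T3, and no probe set of RUNX2, CBFB or CBFA2T2 was called. All 3 calls of higher were of RUNX1T1 and RUNX1, the genes joined in the cDNA that only U937-AE carries. How far these signals read that cDNA was not tested, so the 31.8% is no measure of change in the cells' own genes. The median log2 difference of the 22 was -0.19, against -0.07 over all probe sets above the floor. Each cell line is 1 RNA pool, so no p-value is given and the spread is that between array copies, which is hybridization error. A t-test over array copies, which the study's methods name, was run among the alternatives only and covers no more than that spread. In a pool of cultured cells, fewer cells with a transcript and less transcript per cell cannot be told apart.

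**Figure D1:**
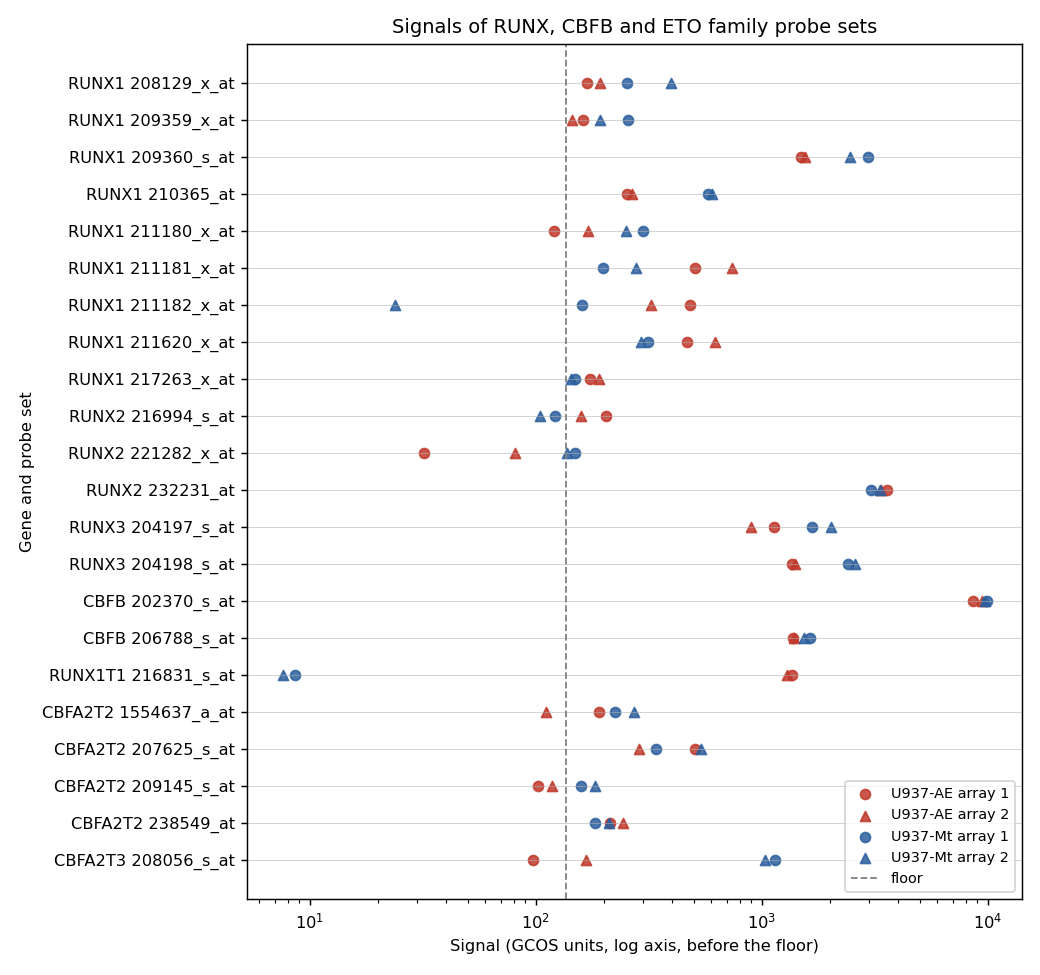
Signal of the 22 member probe sets above the floor on each of the 4 arrays (x axis, GCOS signal units on a log axis, before the floor was applied), with U937-AE arrays in red, U937-Mt arrays in blue, and the floor of 136.85 as a dashed line. RUNX1T1 216831_s_at lies at 1299.0 or more in the U937-AE pool and at 8.6 or less in the U937-Mt pool, and CBFA2T3 208056_s_at reaches 1037.8 or more in U937-Mt only.

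The arrays themselves differed in ways that bear on small differences. The median signal was 119.5 and 129.7 for the U937-AE pool against 146.8 and 153.6 for the U937-Mt pool, although the authors had scaled all 4 to the same trimmed mean. The 18 hybridization spike-in probe sets, which measure RNA added in equal amounts, differed 1.27-fold, with U937-Mt the brighter. Shifting the arrays to the same median moved the median difference of all probe sets above the floor from -0.07 to 0.19, and scaling to the spike-ins moved it to 0.26. As a description across probe sets, r of the log2 signals was 0.935 for the U937-AE copies, 0.919 for the U937-Mt copies and 0.910 to 0.916 for pairs of both lines.

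RUNX1T1, which encodes ETO, checks the labels. Its probe set 216831_s_at read 1361.5 and 1299.0 in the U937-AE pool against 8.6 and 7.6 in the U937-Mt pool. Both U937-Mt values lie far under the floor, so the excess in U937-AE is a lower bound of at least 9.72-fold, with single arrays compared giving 9.49 to 9.95. The other 6 probe sets of the gene were not above the floor on both arrays of either pool. The brightest of them, 216832_at, read 181.9 and 95.5 in the U937-AE pool against 276.6 and 121.2 in the U937-Mt pool, so its groups overlapped, and a call of lower arose only on leaving out array 2 of U937-Mt (-0.81). The remaining 5 had signals between 2.9 and 141.0. Signal at 1 of 7 probe sets therefore carried the difference. Where the probes of each set lie along the transcript was not analysed here, so which of them read the part of ETO that is in the fusion was not tested.

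The pattern of RUNX1T1 216831_s_at over the 4 arrays was most like that of 3 probe sets of other genes, by the Euclidean distance of their floored log2 signals. These were PTPN14 226282_at at a distance of 0.44, BMPR1B 242579_at at 0.53 and LGALS3BP 200923_at at 0.66. PTPN14, a protein tyrosine phosphatase, read 1507.5 and 1730.2 in the U937-AE pool against 70.3 and 66.3 in the U937-Mt pool. BMPR1B, a receptor for bone morphogenetic proteins, had 1033.4 and 1021.1 against 115.5 and 108.1. LGALS3BP, a secreted galectin-binding protein, had 993.0 and 932.0 against 75.5 and 111.9. All 3 were thus below the floor on both U937-Mt arrays, and a distance over 4 arrays describes likeness of these values only.

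RUNX1, the other gene of the fusion, was read by 13 probe sets, and all 13 also name the loci LOC101928269 and LOC100506403, so their signals are uncertain as signals of RUNX1. Of the 13, 8 have the suffix _x_at, which marks probes that can also match other sequences. Above the floor were 9 probe sets, of which 2 were called higher in U937-AE, 2 lower and 5 in neither direction. The median log2 difference of the 9 was -0.53. The remaining 4 probe sets had signals between 4.1 and 51.6.

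The RUNX1 probe sets called lower were those with the suffixes _s_at and _at. Probe set 209360_s_at read 1486.9 and 1552.0 in the U937-AE pool against 2948.5 and 2469.5 in the U937-Mt pool. Both U937-AE arrays lie below both U937-Mt arrays, and the signal was 1.78-fold lower (1.59 to 1.98). Probe set 210365_at gave 252.8 and 265.9 against 578.9 and 602.9. Its groups are also apart, with a signal 2.28-fold lower in U937-AE (2.18 to 2.38). With the arrays shifted to the same median or scaled to the spike-ins 209360_s_at was still lower but no longer called (log2 difference -0.56 and -0.49, from -0.83), while 210365_at was called under both.

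The RUNX1 probe sets called higher were both of the type _x_at. Probe set 211181_x_at read 505.5 and 736.7 in the U937-AE pool against 198.3 and 278.3 in the U937-Mt pool. The lines do not overlap, and the signal was 2.60-fold higher in U937-AE (1.82 to 3.72). Probe set 211182_x_at gave 483.9 and 323.6 against 160.9 and 23.8. The excess was 2.67-fold (2.01 to 3.54), but 1 U937-Mt array lay at the floor and the copies of that pool were 6.76-fold apart before it. Probe set 211620_x_at gave 468.2 and 620.7 against 313.3 and 291.3, a log2 difference of 0.84 that just missed the call, since the smallest of its 4 comparisons was 1.49-fold. It was called higher after quantile normalization, after the median shift and after scaling to the spike-ins (0.97, 1.11 and 1.18), and also without the first U937-AE array (1.04) or the first U937-Mt array (0.89). Probe set 217263_x_at gave 174.4 and 190.0 against 148.9 and 142.8, and its difference of 0.32 was not called.

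The last 3 RUNX1 probe sets above the floor had lower signals in U937-AE but were not called. Probe set 208129_x_at gave 169.0 and 193.6 against 254.8 and 395.7, a log2 difference of -0.81. Probe set 211180_x_at gave 120.6 and 170.7 against 299.3 and 251.3, a difference of -0.84 with 1 U937-AE array at the floor. Probe set 209359_x_at gave 162.3 and 144.9 against 256.6 and 192.4, a difference of -0.53. The smallest comparison of each of the 3 was under 1.5-fold, as for 208129_x_at with a range of 1.32 to 2.34. With 1 array left out only 2 comparisons have to pass, and then 208129_x_at was called lower without the second U937-AE array (-0.91) or the first U937-Mt array (-1.13). Likewise 211180_x_at became lower on leaving out the second array of either line, with -0.97 for that of U937-Mt, and 209359_x_at on leaving out the second U937-Mt array (-0.74). Thus 5 RUNX1 probe sets were lower and 4 higher in U937-AE by mean difference.

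**Figure D2:**
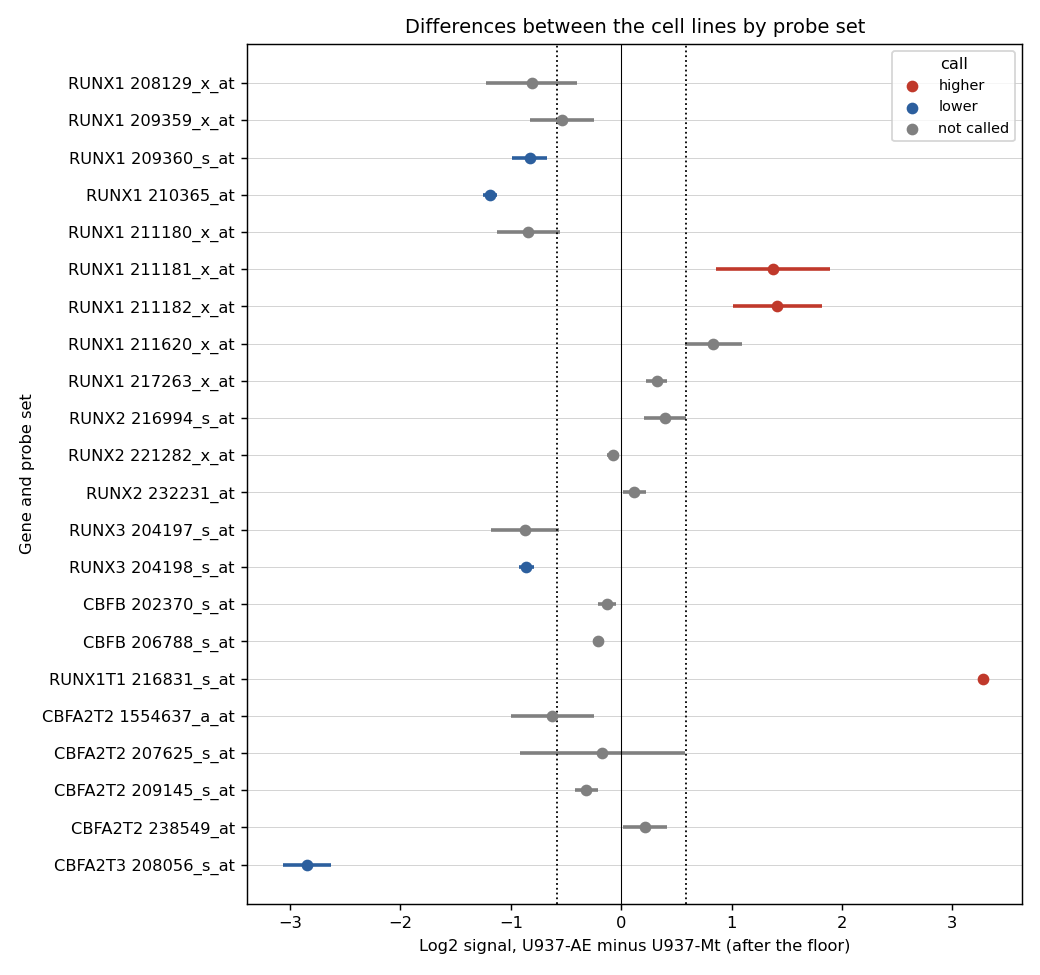
Mean log2 difference between U937-AE and U937-Mt (x axis, after the floor) of the 22 member probe sets above the floor, with bars for the range of the 4 comparisons of single arrays and dotted lines at 1.5-fold. Red and blue mark calls, and RUNX1 probe sets stand on both sides of 0, from -1.19 to 1.42.

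Because any scaling of a whole array cancels in a ratio of signals on the same array, each RUNX1 probe set was also set against RUNX1 209360_s_at, a comparison chosen after the data were seen. Of 8 such ratios, 5 were higher in U937-AE without overlap, 1 was lower and 2 overlapped. Since 209360_s_at was itself lower, this count is no result about RUNX1: of all other probe sets above the floor, 82.1% did not overlap in their ratio to it, 78.4% higher and 3.76% lower. The size of each ratio also includes the lower signal of 209360_s_at itself, which was 1.78-fold lower as deposited (1.59 to 1.98). By its own signal 217263_x_at, for example, was only 1.25-fold higher and was not called. The ratio for 211181_x_at was 34.0% and 47.5% in the U937-AE pool against 6.73% and 11.3% in the U937-Mt pool, so it was 3.02 to 7.06 times as high in U937-AE. For 211620_x_at it was 31.5% and 40.0% against 10.6% and 11.8%, which is 2.67 to 3.76 times as high. For 217263_x_at it was 11.7% and 12.2% against 5.05% and 5.78%, which is 2.03 to 2.42 times as high. The ratio for 210365_at was lower, at 17.0% and 17.1% against 19.6% and 24.4%. These sizes do not depend on the scaling of whole arrays, and which of them read the end of RUNX1 that the fusion keeps was not tested.

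**Figure D3:**
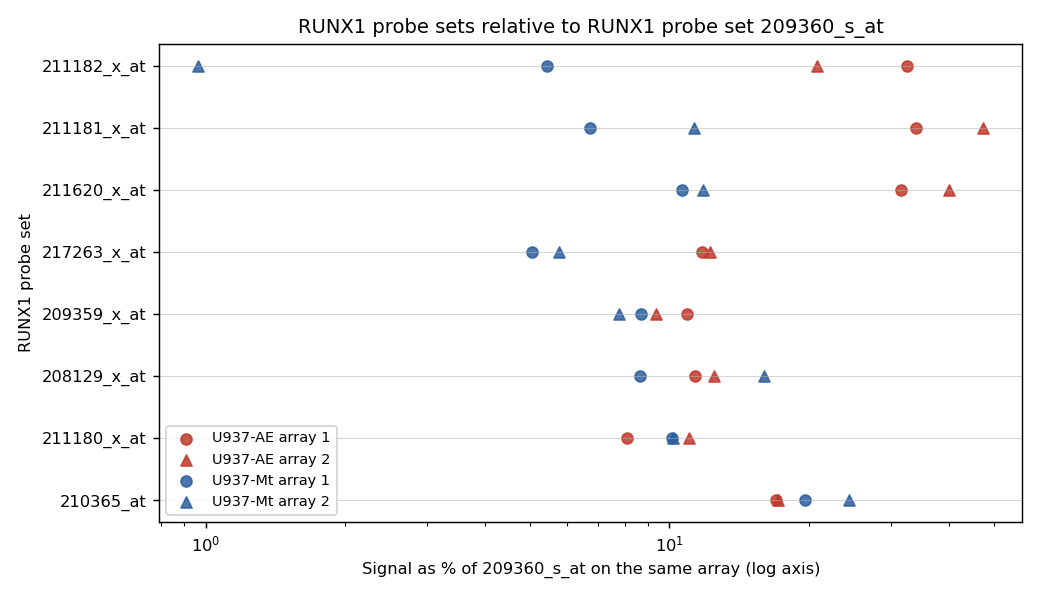
Signal of 8 RUNX1 probe sets as a percentage of RUNX1 209360_s_at on the same array (x axis, log axis, signals before the floor), with U937-AE arrays in red and U937-Mt arrays in blue. The U937-AE points of 211182_x_at, 211181_x_at, 211620_x_at and 217263_x_at lie to the right of the U937-Mt points. Those of 209359_x_at do too, by less (10.9% and 9.34% against 8.70% and 7.79%). For 211182_x_at, 1 U937-Mt point rests on a signal of 23.8, below the floor.

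RUNX3, which acts in immune cells and is expressed in monocytes, had lower signals in U937-AE at both of its probe sets above the floor, and 1 of them was called. Probe set 204198_s_at read 1360.4 and 1401.5 in the U937-AE pool against 2422.1 and 2586.9 in the U937-Mt pool. The groups are apart and the copies close, and the signal was 1.81-fold lower (1.73 to 1.90). Probe set 204197_s_at gave 1131.4 and 899.4 against 1676.5 and 2030.6. It was 1.83-fold lower with a wider range of 1.48 to 2.26, and so was not called, although it was called after quantile normalization (-0.89) and on leaving out array 1 of U937-AE (-1.04) or array 1 of U937-Mt (-1.01). After the median shift and after scaling to the spike-ins the difference of 204198_s_at was -0.59 and -0.51 in place of -0.86, and it was not called. The third probe set, 234928_x_at, had signals between 80.3 and 137.8.

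RUNX2, the regulator of bone formation, was not called at any of its 6 probe sets. Its probe set 232231_at read 3576.4 and 3376.3 in the U937-AE pool against 3054.4 and 3348.2 in the U937-Mt pool, a log2 difference of 0.12. The U937-AE arrays were both above the U937-Mt arrays, but the closest pair of arrays differed only 1.01-fold. Probe set 216994_s_at gave 205.4 and 158.1 against 121.7 and 104.3, which is at least 1.32-fold higher because both U937-Mt arrays lie below the floor, and which was called only without the second U937-AE array (0.59). Probe set 221282_x_at gave 32.0 and 81.5 against 150.0 and 138.4, so U937-Mt lies just above the floor and the difference after it was -0.07. Without a floor, or with one at the 25th percentile, this last probe set was called lower (-1.50 and -1.31). The other 3 probe sets had signals between 15.2 and 128.3. RUNX1 and RUNX3 thus had calls and RUNX2 had none, and whether the genes differ in their change was not tested.

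CBFB was not called at either of its probe sets. Probe set 202370_s_at read 8604.6 and 9432.2 in the U937-AE pool against 9962.1 and 9733.4 in the U937-Mt pool, a log2 difference of -0.13 with a range of -0.21 to -0.05. Probe set 206788_s_at gave 1371.0 and 1393.4 against 1641.7 and 1548.4, a difference of -0.21 (-0.26 to -0.15). Both differences turned positive when the arrays were shifted to the same median or scaled to the spike-ins, where 202370_s_at had 0.14 and 0.22, so CBFB has no settled direction. On the same array, RUNX3 204198_s_at was 15.8% and 14.9% of CBFB 202370_s_at in the U937-AE pool against 24.3% and 26.6% in the U937-Mt pool. RUNX1 209360_s_at was 17.3% and 16.5% of it against 29.6% and 25.4%. These ratios differed by -0.73 and -0.70 on the log2 scale, which no scaling of whole arrays alters. Other RUNX1 probe sets went the other way against CBFB, with 1.51 for 211181_x_at, 0.96 for 211620_x_at and 0.45 for 217263_x_at, and 211182_x_at, below the floor on 1 U937-Mt array, was higher as well. Of 21 member ratios to CBFB 202370_s_at 19 did not overlap, and of all probe sets 60.7% did not, 34.8% higher and 25.9% lower.

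CBFA2T3, also known as MTG16, which acts in blood stem and progenitor cells, had the largest difference of the members toward lower signal in U937-AE. Its only probe set, 208056_s_at, read 97.8 and 168.0 in the U937-AE pool against 1146.5 and 1037.8 in the U937-Mt pool. Each U937-Mt array exceeded each U937-AE array, and the signal was 7.19-fold lower in U937-AE (6.18 to 8.38), with 1 U937-AE array at the floor. It was called in each setting in which its difference was recomputed, with log2 differences from -3.09 to -1.18 and a main value of -2.85. The probe sets of other genes closest to this pattern were IL32 203828_s_at at a distance of 0.36, OLIG1 228170_at at 0.39 and STXBP2 209367_at at 0.41. IL32, a cytokine, read 104.2 and 121.8 in the U937-AE pool against 1090.5 and 910.5 in the U937-Mt pool. OLIG1, a factor of oligodendrocyte development, had 42.9 and 93.8 against 1036.2 and 894.2. STXBP2, a regulator of granule secretion, had 39.5 and 73.8 against 979.7 and 917.6.

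CBFA2T2, also known as MTGR1, the third corepressor of the ETO family, was not called at any of its 5 probe sets. Probe set 207625_s_at read 506.2 and 287.2 in the U937-AE pool against 340.0 and 541.5 in the U937-Mt pool. These groups overlap and copies of 1 pool differed up to 1.76-fold, and the sign of its difference of -0.17 turned after the median shift, after scaling to the spike-ins and without the second U937-AE or the second U937-Mt array. Probe set 1554637_a_at gave 190.0 and 111.4 against 225.6 and 273.3, a difference of -0.62 that was called without the first U937-AE array (-0.86). Probe set 209145_s_at gave 102.4 and 118.0 against 158.8 and 183.4 and was at least 1.25-fold lower. Probe set 238549_at gave 213.7 and 244.7 against 183.8 and 210.8, a difference of 0.22 in the other direction. The fifth, 209144_s_at, had signals between 43.9 and 175.8. The probe sets of CBFA2T2 thus pointed both ways, and none met the call rule on all 4 arrays.

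**Figure D4:**
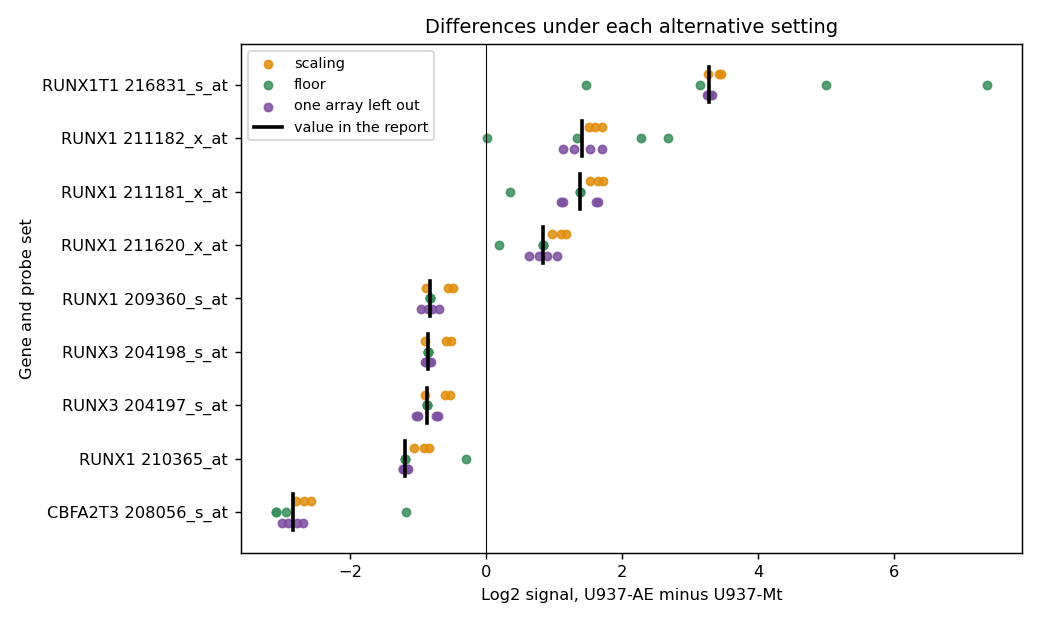
Log2 difference between U937-AE and U937-Mt (x axis) of 9 member probe sets as reported (black bars) and under other scalings (orange), other floors (green) and with each array left out (purple). The points of each probe set stay on 1 side of 0, and the difference of RUNX1T1 216831_s_at ranges most, from 1.47 to 7.36 with other floors.

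The genes around these proteins were described through 5 lists, with 1 probe set for each gene. Of all 12370 genes above the floor 9.01% were called, 2.81% as higher and 6.2% as lower, and their median log2 difference was -0.08. The genes of corepressor complexes that ETO proteins recruit, with histone deacetylases and the SIN3 and TBL1 proteins, had 9 members above the floor and none of them was called. Their median was -0.01, and TBL1X was called higher without the second U937-Mt array (1.02). Of the genes for DNA-binding partners of the ETO family, 11 of 13 were above the floor, with 2 higher, 1 lower and 8 without a call, and their median was -0.20. TCF4, an E protein that binds E boxes, was 3.21-fold higher, reading 2036.6 and 1809.8 in the U937-AE pool against 685.3 and 521.6 in the U937-Mt pool. ZBTB33, the methyl-CpG binding protein Kaiso, was 1.59-fold higher and was not called after quantile normalization. LMO2, an adaptor of blood stem cell factor complexes, was 2.02-fold lower and was not called after the median shift or scaling to the spike-ins. TCF12, the E protein HEB, which was singled out after its values were seen, gave 5389.5 and 4990.0 against 5570.9 and 4892.3. Its lines overlap, with a difference of -0.01. LYL1 was called lower after quantile normalization (-0.63), and TAL1 was called lower without the first U937-Mt array (-0.77).

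Of the genes whose proteins partner RUNX1 and CBFB, 16 of 18 were above the floor, with 1 higher, 5 lower and 10 without a call, and their median was -0.03. The myeloid factor CEBPA read 735.5 and 898.3 in the U937-AE pool against 5820.9 and 5545.9 in the U937-Mt pool, which is 6.99-fold lower. SPI1, the myeloid and B cell factor PU.1, gave 405.3 and 358.5 against 1007.4 and 1103.1, which is 2.77-fold lower. Both factors were clearly apart between the lines, and both also stand in the list of RUNX1 targets. ELF4, an ETS factor, was 2.43-fold lower, and the corepressor TLE4 1.93-fold lower. The remaining calls, named after their values were seen, were TLE1 at 1.80-fold lower and KMT2A at 1.59-fold higher. TLE1 was not called under any of the 3 other scalings, TLE4 not after the median shift or scaling to the spike-ins, and KMT2A not after quantile normalization. KAT6A, a histone acetyltransferase, was called higher with spike-in scaling (0.76).

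Of textbook RUNX1 target genes of myeloid cells, 11 of 15 were above the floor. The calls were 8 lower and 1 higher in U937-AE, 2 genes had none, and the median was -1.47. The list was chosen with earlier results of these data known, so its direction is a description. MPO, the myeloperoxidase of neutrophil granules, read 1898.0 and 1557.9 in the U937-AE pool against 16116.7 and 14590.8 in the U937-Mt pool, which is 8.92-fold lower. ELANE, neutrophil elastase, gave 45.5 and 10.9 against 763.7 and 759.6, at least 5.57-fold lower. CSF3R, the receptor of granulocyte colony stimulating factor, gave 389.6 and 398.4 against 2143.7 and 1892.5, which is 5.11-fold lower. MPO, ELANE and CSF3R were thus low in the line in which RUNX1T1 216831_s_at was high. That holds for every gene called lower here, and a link between them was not tested. PRTN3, another granule gene of the list, was under the floor on all arrays, and the receptor gene CSF1R was not called. The 1 gene that was higher, CDKN1A, a cell cycle inhibitor singled out after its values were seen, gave 556.1 and 601.3 against 49.2 and 154.3, which is 3.98-fold with 1 U937-Mt array at the floor. CEBPE was called lower without the second U937-AE array (-1.16). Under the 3 other scalings 7 or 8 genes of the list were lower and 1 was higher. Of 11 markers of t(8;21) leukemia only 4 were above the floor, and none of the 4 was called, except that CD34 was lower without the second U937-AE array (-0.80) or the first U937-Mt array (-0.80).

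**Figure D5:**
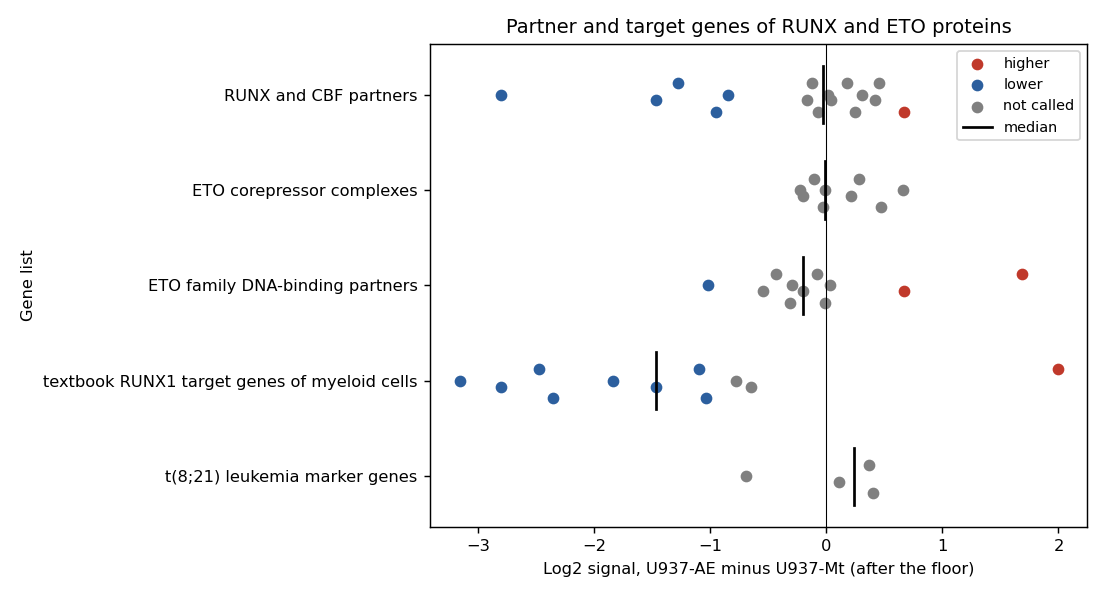
Log2 difference between U937-AE and U937-Mt (x axis, after the floor) of the genes above the floor in 5 lists, 1 point a gene, with the median of each list as a black bar and calls in red and blue. The RUNX1 target genes have a median of -1.47, and the 9 corepressor genes are all grey.

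Markers of the cell line were read beside these values. Of the myeloid markers 6 were above the floor, with PTPRC (the pan-leukocyte marker CD45) 1.56-fold higher in U937-AE, ITGAM, ITGB2 and LYZ 2.16-fold, 2.45-fold and 2.05-fold lower, and CD4 and CSF1R not called. PTPRC was not called after quantile normalization, and LYZ not after the median shift or scaling to the spike-ins. CSF1R was called lower without the first U937-AE array (-0.92) or the first U937-Mt array (-1.07). CD14, a marker of mature monocytes, was between 7.2 and 30.5 on all arrays. The 3 T cell and 3 epithelial markers were not above the floor, and the markers of B cells, NK cells, erythroid cells and fibroblasts that were above it (CD79A, NCAM1, KLRD1, KLRF1, HBB, COL1A1, COL1A2 and PDGFRB) were not called. The myeloid markers ITGAM, ITGB2 and LYZ were lower in the same line as RUNX3 and CBFA2T3, while PTPRC was higher there. The part of the differentiation state of the clone in these values was not tested.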

How the data were processed

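The authors put 1 labeled RNA pool of each cell line on 2 copies of the array and, per the labels and their methods, computed signals with GCOS, named in the submitters' processing notes. The version of GCOS was not given in the sources used here. The deposited values are signal intensities on a linear scale, 1 per probe set and array, with equal trimmed means. The labels number the copies as replicates. From 54675 probe sets 62 controls were left out. Of the rest, 41091 have 1 gene symbol, 1801 several and 11721 none in the annotation used here. For 41037 of those with 1 symbol, the symbol was taken from RefSeq through the gene identifier, whether or not it changed. Signals below the pooled 50th percentile (136.85) were raised to it and log2 was taken. A probe set was called when all 4 comparisons of single arrays were past 1.5-fold in 1 direction, without a p-value, since n is 1 pool a line. A gene in a list took its brightest probe set of 1 symbol. The rule was tested on simulated data. Named genes are all member probe sets, up to 4 called genes of each list with the largest difference, and the 3 nearest probe sets of RUNX1T1 and CBFA2T3. The members and lists were chosen with earlier results of these data known. Alternatives were 3 other scalings, 4 other floors, 2 other folds, the methods' t-test, same-numbered arrays, other choices of probe sets and each array left out. Promoters are RefSeq's, GRCh38.p14. The steps ran in Python 3.11.15 with matplotlib 3.10.9, pandas 2.3.3, scipy 1.17.1 and numpy 2.4.6.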

Additional observations from a re-analysis of the deposited data

How the results depend on the processing

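The 7 called member probe sets kept their direction in all 11 settings of scaling, floor and left-out array. Leaving out an array or moving the common floor cannot reverse a called direction by construction. Only the 3 scalings and a floor at each array's own median could have done so. The count of member probe sets called lower, 4 as reported, was 2 with arrays shifted to the same median, 2 with arrays scaled to the spike-ins, 7 without a floor, 2 at 2-fold and 8 when only the mean had to pass 1.5-fold. The count called higher, 3 as reported, was 1 with a floor at the 75th percentile, where 211181_x_at and 211182_x_at were no longer called. The methods' t-test at an unadjusted p under 0.05 and 2-fold, which covers the spread between array copies only, gave 2 higher and 2 lower members, and 0 and 0 after Benjamini-Hochberg. Without probe sets that name several genes 1 was higher and 2 were lower, and without the suffixes _x_at and _s_at 0 and 1. Leaving out single arrays gave 3 to 4 higher and 6 to 7 lower members, with 7 lower without the second U937-Mt array. Over all probe sets the 2170 calls, 66% of them lower, became 3417 with spike-in scaling (15.9% lower), 2690 with the median shift (24.8%), 1986 with quantile normalization (52.4%), 969 with a floor at the 75th percentile (55.8%), 4375 with one at the 25th, 6553 without a floor, 634 at 2-fold, 4727 by the mean, 904 by the methods' t-test and 14 after adjustment. It was 3307 to 4446 with single arrays left out. The 16 called list genes became 9 at 2-fold, 1 by the adjusted t-test and 17 to 20 with single arrays left out. The replicate block, which compares only arrays of the same number, gave 3 higher and 5 lower members (208129_x_at was added), 2701 probe sets and 17 list genes, and the numbers only name array copies. The cause of these changes was not tested beyond what each setting does by construction. With 1 pool a line no setting measures variation between cultures, and signals near the floor limit what the arrays resolve, as for the 15 member probe sets not above it.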
